A study of Mus musculus with 8 samples.

Results

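The 103 genes described here encode the respiratory chain and the ATP synthase of the inner mitochondrial membrane. They were chosen by name from the 53801 genes of the deposited table: names beginning with Nduf, Uqcr or Atp5, the names Sdha to Sdhd, names beginning with Cox4 to Cox8, and the protein-coding genes of the mitochondrial genome. Of 113 matching names, 8 marked as pseudogenes and the tissue-restricted paralogues Ndufa4l2 and Cox4i2 were left out. Of the 103 members, 90 lie in the nucleus and 13 on the mitochondrial genome.

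RNA was sequenced from 8 samples of cells sorted as negative for CD45, a leukocyte antigen, and for CD31, an endothelial antigen, from ulcers of the small intestine of mice designated LTβRYFP. YFP-negative cells formed 1 group of 4 libraries and YFP-positive cells the other group of 4. All mice had received indomethacin, an inhibitor of the cyclooxygenases, so no comparison with untreated gut can be made. The sources used here give neither how the YFP reporter follows the lymphotoxin beta receptor nor the age and sex of the mice. Total counts per library ranged from 12481608 to 29385718. Fibroblast markers summed to between 21290 and 51766 CPM (counts scaled to the normalised library size) over the libraries, against 18.4 to 81.3 for leukocyte, 12.4 to 90.7 for endothelial and 11.2 to 105 for epithelial markers. Both libraries numbered 2 stood apart from the others on the first principal component, at 92.5 and 78.7 against -46.2 to -12.4.

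Complex I oxidises NADH, complex II oxidises succinate, and both pass electrons through ubiquinone to complex III, then through cytochrome c to complex IV and oxygen. Complexes I, III and IV pump protons, and complex V, the ATP synthase, uses the returning protons to make ATP. Complexes I, III, IV and V combine subunits made from nuclear genes with subunits made from mitochondrial DNA, which is transcribed by its own polymerase as long transcripts that are then cut apart, whereas complex II is entirely nuclear. The nuclear members fell into 7 core subunits of complex I, 29 supernumerary subunits of complex I, 8 complex I assembly factors or related proteins, 4 subunits of complex II, 8 of complex III, 18 of complex IV and 16 of complex V.

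Counts were absent from a block of mitochondrial genes that lie side by side. mt-Co2, mt-Atp8, mt-Co3 and mt-Nd4l had 0 counts in all 8 libraries. mt-Atp6 had 4 counts and mt-Nd3 had 2 counts, each in 1 library. Their neighbours were among the most counted genes of the chain: mt-Co1 had 283229 counts and mt-Nd4 had 113985. In the mouse build GRCm38, mt-Co2 begins at base 7013 and mt-Nd3 ends at base 9806 of the mitochondrial genome, and mt-Nd4l follows at bases 9877 to 10173. Annotated copies of these genes lie on the minus strand of chromosome 1. The copies named Gm28661, Gm10925, Gm28437, Gm28438 and Gm10222 aligned to 681 of 684 bases of mt-Co2, 678 of 681 of mt-Atp6, 783 of 784 of mt-Co3, 345 of 348 of mt-Nd3 and 294 of 297 of mt-Nd4l, with 1 mismatch in the copy of mt-Nd3 and 0 mismatches in the others. The copies had between 0 and 9 counts over the 8 libraries.

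The first 90 bases of mt-Nd3 and mt-Nd4l are shown with their copies, because they show how little a short read from these genes could differ from the nuclear copy. Each is read 5′ to 3′ on the strand of its gene, from the GENCODE M21 transcripts of GRCm38, and capitals mark the only difference, T3C, counted from the first base of mt-Nd3.
mt-Nd3, chrM:9459-9548, plus strand: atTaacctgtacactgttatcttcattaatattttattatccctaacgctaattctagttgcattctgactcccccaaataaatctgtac
Gm28438, chr1:24613030-24613119, minus strand: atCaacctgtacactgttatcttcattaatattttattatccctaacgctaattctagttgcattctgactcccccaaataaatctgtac
mt-Nd4l, chrM:9877-9966, plus strand: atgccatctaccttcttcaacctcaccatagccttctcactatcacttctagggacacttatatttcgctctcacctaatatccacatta
Gm10222, chr1:24612611-24612700, minus strand: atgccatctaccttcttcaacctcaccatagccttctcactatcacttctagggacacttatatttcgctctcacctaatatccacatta
The first pair differed at 1 of 90 bases and the second at 0. No annotated copy of at least 50 bases and 98% identity was found for mt-Nd1, mt-Nd2, mt-Nd5, mt-Nd6 and mt-Cytb, which all had counts in every library. mt-Co1 had a copy over 31.3% and mt-Nd4 over 63.6% of the transcript. mt-Atp8, also at 0, had no such annotated copy, although it lies between mt-Co2 and mt-Atp6. The sources used here do not state how reads matching more than 1 place were counted, and its part in these values was not tested. The 6 values at or near 0 were therefore not read as levels of expression.

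**Figure D1:**
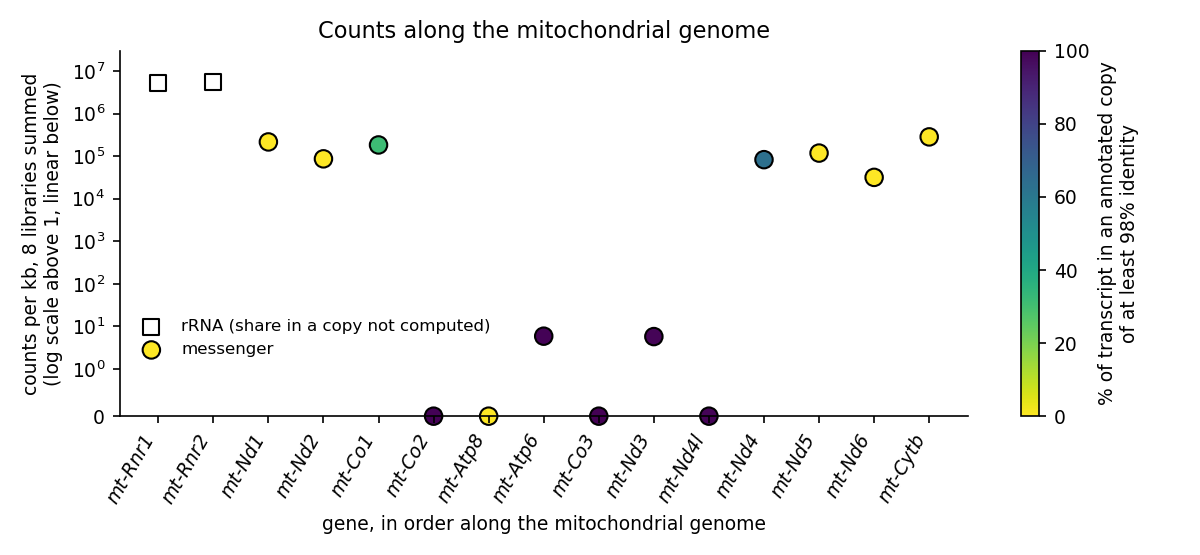
Counts per kilobase summed over the 8 libraries (vertical axis, logarithmic above 1 and linear below) for the 2 rRNA and 13 protein-coding genes in their order on the mitochondrial genome, with each protein-coding gene coloured by the percentage of its transcript found in an annotated nuclear copy. The 6 genes from mt-Co2 to mt-Nd4l have 0 to 4 counts each, between mt-Co1 with 283229 counts and mt-Nd4 with 113985.

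A related gap was seen among nuclear members. Cox4i1, a regulatory subunit of complex IV, and Ndufa13, a complex I subunit also called GRIM-19, had 0 counts in all 8 libraries. Cox4i1 (chr8:120668222-120674207, plus strand) lies wholly inside the annotated gene Gm20388 on the same strand, and Ndufa13 (chr8:69894180-69902558, minus strand) lies wholly inside Yjefn3. All 446 protein-coding genes that lie wholly inside another gene on the same strand had 0 counts in all 8 libraries. The same was true of 23.5% of 803 genes inside a gene on the opposite strand only, and of 15.4% of 20718 genes inside neither. Gm20388 had 461, 429, 417 and 460 CPM in YFP-negative cells 1 to 4 and 362, 377, 370 and 308 CPM in YFP-positive cells 1 to 4. Yjefn3 lay between 0 and 2.62 CPM in YFP-negative and between 0.554 and 2.76 CPM in YFP-positive cells. Whether reads of Cox4i1 or Ndufa13 entered the counts of these genes was not tested. The values of Gm20388 can therefore not be read as levels of Cox4i1. Cox8c, a testis isoform of complex IV, also had 0 counts, which made 7 members with none in any library. Ndufb9, Ndufb8 and Ndufb2 shared 62.9%, 62.0% and 37.2% of their gene bodies with another gene on the same strand, so their counts may be partial. Ndufs3 shared 75.7% of its transcript with a near-identical copy, and 8 others with more than 25% in a copy shared between 28.6% and 46.9%.

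A filter on low counts left 91 members for testing, 84 nuclear and 7 mitochondrially encoded. Besides the members at or near 0 above, it removed Cox6a2, Cox7b2 and Cox8b, isoforms of striated muscle or testis, with 15, 5 and 19 counts over the 8 libraries. In edgeR's quasi-likelihood test without the replicate number as a block, 0 of the 84 nuclear and 0 of the 7 mitochondrial members passed an adjusted p of 0.05. Over all 15945 genes tested 0.0% were called, and the lowest adjusted p was 0.99985. At an unadjusted p of 0.05 or below, 0 members and 325 genes in all were found. DESeq2 without the block called 2 genes, and limma voom 0, with 0 members among them.

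Libraries of the same number deviated together from their group means, so the same test was also run with the number as a block. It called 364 genes, 2.28% of those tested, of which 0.696% were higher and 1.59% lower in YFP-positive cells. Among the nuclear members 0 of 84 were called, with a lowest adjusted p of 0.262. Among the mitochondrial members 1 of 7 was called, mt-Co1, which was lower.

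All 7 counted mitochondrial messengers were lower in YFP-positive cells on average, where 49.1% of all genes tested had a log2 fold change below 0. The groups overlapped for all 7, while 0.859% of all genes had every YFP-positive library below every YFP-negative one. mt-Co1 encodes the catalytic subunit of complex IV, where oxygen is reduced. It had 1747, 1816, 1467 and 2316 CPM in YFP-negative cells 1 to 4, and 1505, 1520, 1342 and 1662 CPM in YFP-positive cells 1 to 4. The YFP-positive library was the lower of each numbered pair, in 4 of 4, but the groups overlapped because YFP-negative library 3 lay below 3 of the YFP-positive libraries. Its mean was 1837 ± 353 CPM (SD, n = 4) in YFP-negative and 1507 ± 131 CPM (SD, n = 4) in YFP-positive cells. In edgeR's fit without the block the log2 fold change was -0.29 ± 0.18 (SE), with an adjusted p of 0.99985 and a 95% interval from -0.68 to 0.11. With the replicate block edgeR gave -0.27 ± 0.07 (SE), with an adjusted p of 0.0465 and an interval from -0.41 to -0.13. This call did not survive scaling by library sizes only, where the log2 fold change was -0.18 and the adjusted p 0.139. It was also lost without replicate 1, 2, 3 or 4, with adjusted p-values of 0.0963, 0.0977, 0.122 and 0.226, and was kept with RLE factors at 0.042 and with DESeq2 at 0.00173. The authors' deposited table gives mt-Co1 a log2 fold change of -0.28 and an adjusted p of 0.001072, and no other member one that passed 0.05.

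mt-Cytb encodes cytochrome b, a haem-carrying subunit of complex III. It had 1962, 2109, 1501 and 2712 CPM in YFP-negative cells and 1805, 1906, 1445 and 1986 CPM in YFP-positive cells. With the replicate block, edgeR gave it a log2 fold change of -0.19 ± 0.07 (SE) and an adjusted p of 0.24. mt-Nd1, mt-Nd2, mt-Nd4 and mt-Nd5 encode subunits of the membrane arm of complex I. mt-Nd1 had 1388, 1322, 991 and 1534 CPM in YFP-negative and 1322, 1126, 943 and 1116 CPM in YFP-positive cells. mt-Nd5 had 1317, 1329, 974.8 and 1796 CPM in YFP-negative and 1263, 1214, 956 and 1327 CPM in YFP-positive cells. In each of these genes YFP-negative library 4 was the highest of all 8, and the YFP-positive libraries lay inside or just below the YFP-negative range. mt-Nd2 had 587, 530, 387 and 783 CPM in YFP-negative and 538, 478, 367 and 567 CPM in YFP-positive cells. mt-Nd4 had 705, 704, 522 and 944 CPM against 660.5, 615, 507 and 720 CPM. mt-Nd6 is the only messenger of this set transcribed from the other strand. It had 102, 80.5, 89.97 and 137 CPM in YFP-negative and 96.5, 88.9, 69.0 and 97.9 CPM in YFP-positive cells, and was lower in 3 of 4 pairs. The other 6 were lower in 4 of 4 pairs, against 10.2% of all genes tested. With library sizes only, 3 of the 7 were lower in 4 of 4 pairs, against 5.97% of all genes.

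**Figure D2:**
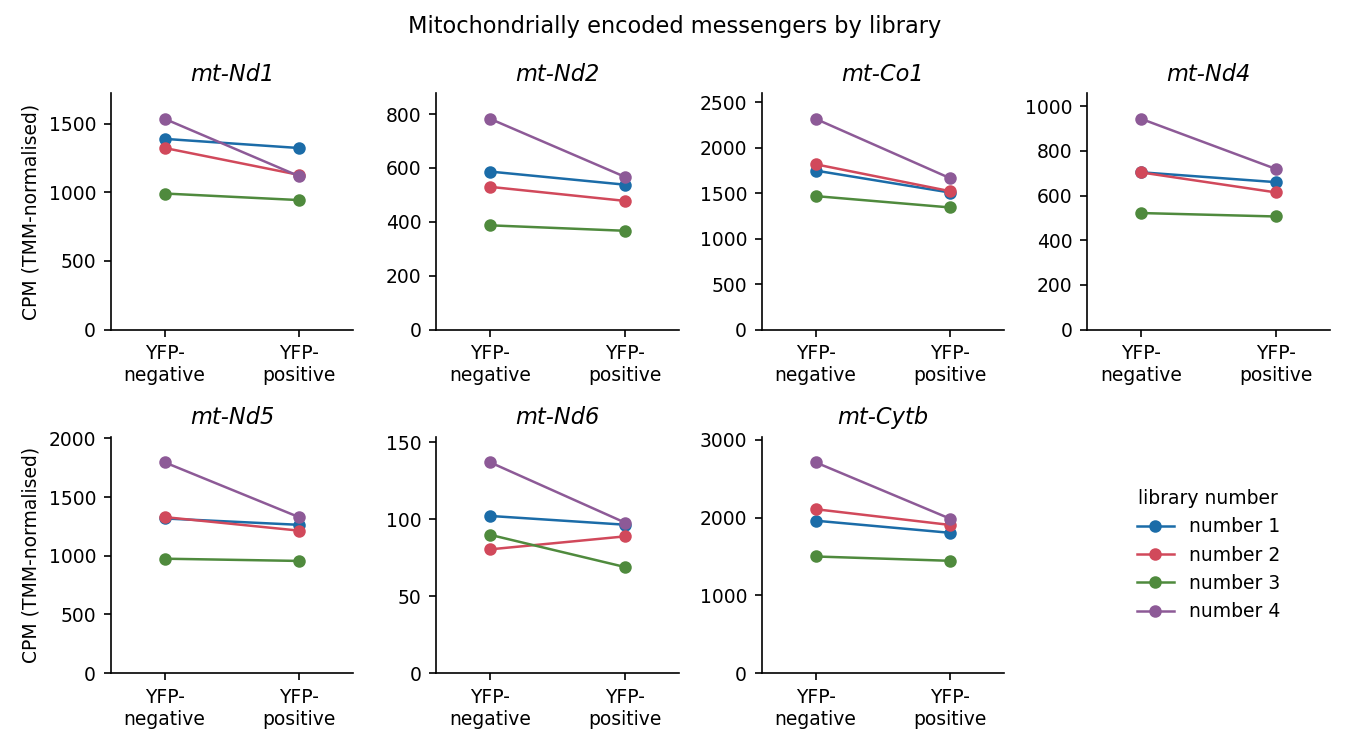
TMM-normalised CPM (vertical axes, starting at 0) of the 7 counted mitochondrial messengers in YFP-negative and YFP-positive libraries, with lines joining libraries of the same number. The YFP-positive end is the lower one on every line except that of number 2 for mt-Nd6, and number 4 shows the widest gap.

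The 7 fold changes were close to one another. On the log2 scale they ran from -0.29 for mt-Co1 to -0.19 for mt-Nd5 without the block, with a median of -0.22, where the median of all genes tested was 0.00. At an unadjusted p of 0.05 or below all 7 were lower in the blocked fit, where 6.42% of all genes were. Without replicate 4 only 1 of the 7 was, against 4.65% of all genes. Leaving out YFP-negative replicate 4 moved the median from -0.22 to -0.05, and leaving out YFP-negative replicate 3 moved it to -0.33. The sign of all 7 stayed below 0 in the 24 of 24 fits that tested them as a set of 7. These genes come from shared precursor transcripts and the same libraries, so they are not independent measurements.

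These genes have no introns, so their levels are given per kilobase of the whole gene. mt-Co1 and mt-Nd4 have an annotated copy over 31.3% and 63.6% of the transcript, so their values may be too low. Their places in the order below, and comparisons with them, are therefore uncertain. In YFP-negative cells mt-Cytb stood at 1810 ± 437 (SD, n = 4) CPM per kilobase, mt-Nd1 at 1368 ± 240, mt-Co1 at 1189 ± 229, mt-Nd5 at 742 ± 185, mt-Nd2 at 551 ± 158, mt-Nd4 at 522 ± 126 and mt-Nd6 at 197 ± 48. The order in YFP-positive cells was the same, from 1561 ± 209 for mt-Cytb to 170 ± 26 for mt-Nd6. mt-Nd2 and mt-Nd4 lay within 1 SD of each other in both groups, as did mt-Nd1 and mt-Co1 in YFP-negative cells. As a share of the counts of mitochondrial messengers, mt-Co1 was lower in 4 of 4 pairs, at 22.4%, 23.0%, 24.7% and 22.7% in YFP-negative and 20.9%, 21.9%, 23.8% and 22.2% in YFP-positive cells. mt-Nd5 was higher in 4 of 4, with a mean of 16.9% ± 0.47 (SD, n = 4) against 17.4% ± 0.33. The share needs no scaling between libraries, and the groups overlapped for both genes. For the shares of mt-Cytb, mt-Nd1, mt-Nd2, mt-Nd4 and mt-Nd6 the pairs went both ways. Shares of the same sum are not independent, and the sum lacks the messengers at or near 0.

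The mitochondrial rRNAs mt-Rnr1 and mt-Rnr2, which are not among the 103 members, lay on the same side of 0. Each had a log2 fold change of -0.28 without the block and was lower in 4 of 4 pairs, with adjusted p-values of 0.171 and 0.187 in edgeR's blocked fit. Together they took between 7.11% and 11.4% of all counts, with the highest share in YFP-negative library 4. The ratio of messengers to rRNA differed by less than the spread within a group. On the log2 scale it was -3.48 ± 0.14 (SD, n = 4) in YFP-negative and -3.44 ± 0.09 in YFP-positive cells. Among 28 genes of mitochondrial transcription, RNA stability and DNA replication, 26 were tested. In the blocked fit 1 of the 26 was called, where 2.28% of all genes tested were called. Polg2, the accessory subunit of the mitochondrial DNA polymerase, fell from 54.8 to 42.9 CPM on average, with a log2 fold change of -0.43 ± 0.10 (SE) and an adjusted p of 0.0438 in edgeR. Its adjusted p was 0.117 with library sizes only, and 0.191, 0.109 and 0.225 without replicate 1, 3 or 4. Without the block, the sign of its log2 fold change was reversed in 1 of 17 other fits. It was 0.05 there, without YFP-negative replicate 2. Tfam, which packages mitochondrial DNA and starts its transcription, had a log2 fold change of 0.15, and Polrmt, the mitochondrial RNA polymerase, one of -0.22, and neither passed the test.

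The core subunits of complex I, which hold its redox centres, had the highest median among the nuclear classes, 0.22 on the log2 scale, and 6 of 7 lay above 0. None passed the test. Ndufs7 carries the last iron-sulphur cluster before ubiquinone (chr10:80249121-80256794, plus strand). It had 16.8, 10.9, 22.0 and 25.5 CPM in YFP-negative cells 1 to 4 and 22.5, 23.1, 24.1 and 28.3 CPM in YFP-positive cells 1 to 4. YFP-positive was the higher library in 4 of 4 pairs, most so for number 2, and the groups overlapped. In the blocked edgeR fit its log2 fold change was 0.43 ± 0.17 (SE), with an adjusted p of 0.294. Ndufs8, another iron-sulphur subunit, and Ndufs1, the largest core subunit, were chosen for description after their values were seen. Ndufs8 had 23.4, 13.9, 20.9 and 21.6 CPM in YFP-negative and 34.7, 17.6, 24.4 and 26.6 CPM in YFP-positive cells, a log2 fold change of 0.36 ± 0.14 (SE) and an adjusted p of 0.262 in the same fit. Ndufs1 had 34.4, 43.8, 50.6 and 41.3 CPM against 47.9, 53.4, 48.9 and 47.3 CPM, higher in 3 of 4 pairs. Ndufs7, Ndufs8 and Ndufs1 were the 3 nuclear members with an unadjusted p of 0.05 or below in the blocked fit, 3 of 84, where 4.69% of all genes tested were higher at that p. In the lower direction there were 0 such members, where the share of all genes was 6.42%.

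Ndufv2, which carries an iron-sulphur cluster near the site of NADH oxidation, had 43.8, 43.8, 53.4 and 52.7 CPM against 49.98, 46.6, 60.7 and 54.8 CPM, higher in 4 of 4 pairs, with an adjusted p of 0.692 in the blocked edgeR fit. Ndufs7, Ndufs8, Ndufv2 and Sdhd are plotted by library as 4 of the 7 of 84 nuclear members that were higher in 4 of 4 pairs, against 8.86% of all genes, so their shared direction comes from that choice.

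**Figure D3:**
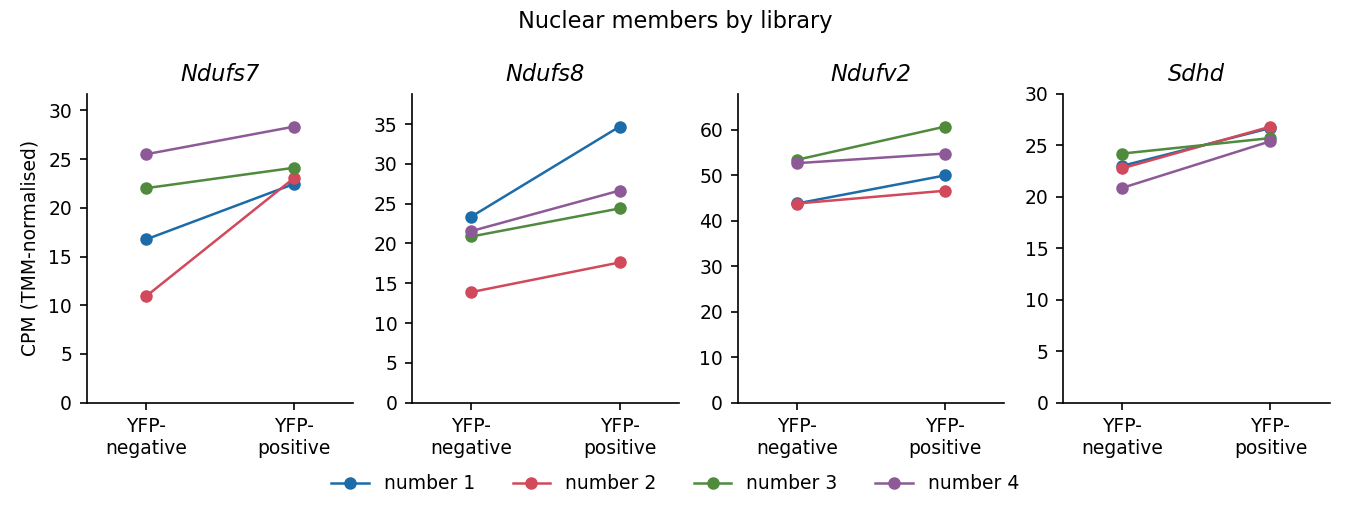
TMM-normalised CPM (vertical axes, starting at 0) of Ndufs7, Ndufs8, Ndufv2 and Sdhd in YFP-negative and YFP-positive libraries, with lines joining libraries of the same number. All 4 genes, picked among the 7 of 84 nuclear members higher in 4 of 4 pairs (8.86% of all genes), are higher at the YFP-positive end of all 4 lines, without passing the test, and the groups are apart only for Sdhd.

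The 28 tested supernumerary subunits of complex I, which surround the core, had a median log2 fold change of 0.04, with 16 above 0. They ran from -0.23 for Ndufb2 to 0.26 for Ndufs5, both at about 3 to 10 CPM, and the lowest adjusted p in edgeR's blocked fit was 0.711. The most abundant were Ndufs4, which is needed for the last steps of complex I assembly, and Ndufv3. Ndufs4 had 40.5, 45.4, 35.2 and 49.9 CPM in YFP-negative and 38.6, 41.8, 41.5 and 42.6 CPM in YFP-positive cells, and Ndufv3 had 38.6, 23.5, 48.2 and 55.6 CPM against 38.7, 25.8, 49.0 and 49.8 CPM. Both had group means within 1 SD of each other. The 8 assembly factors had a median of 0.06, ran from -0.04 for Ndufaf4 to 0.21 for Ndufaf5, and had mean levels of 3.55 to 19.9 CPM. Ndufaf2, the most abundant of them, had 25.3, 14.9, 17.8 and 21.9 CPM against 24.1, 11.6, 18.8 and 24.7 CPM.

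Complex II had all 4 subunits above 0, with a median of 0.07. Sdhd, the small membrane anchor that helps bind ubiquinone, was the only nuclear member whose groups did not overlap (chr9:50596357-50603812, minus strand). It had 23.0, 22.7, 24.2 and 20.8 CPM in YFP-negative and 26.7, 26.8, 25.7 and 25.4 CPM in YFP-positive cells. Over all genes tested, 0.69% did not overlap in this direction. Its log2 fold change in the blocked edgeR fit was 0.20 ± 0.13 (SE), with an adjusted p of 0.651. Sdha, the flavoprotein that oxidises succinate, had 99.7, 61.3, 121 and 105 CPM in YFP-negative and 121, 64.5, 107 and 109 CPM in YFP-positive cells. Sdhb, its iron-sulphur partner, had 34.4, 27.0, 40.1 and 39.3 CPM against 36.0, 30.6, 38.3 and 40.9 CPM. The differences in both were smaller than the spread between libraries of a group.

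Complex III had the median nearest 0, at 0.00, with 4 of 8 nuclear subunits above 0. Uqcrc1, a core protein of the matrix face, had 62.7, 48.3, 62.7 and 49.2 CPM in YFP-negative and 66.7, 50.4, 61.0 and 57.7 CPM in YFP-positive cells, for a log2 fold change of 0.08 ± 0.16 (SE) in edgeR's fit without the block. Uqcrb, which binds next to cytochrome b, had 58.0, 53.6, 55.7 and 57.1 CPM against 49.4, 46.0, 56.4 and 52.3 CPM, with a log2 fold change of -0.14 ± 0.14 (SE), the lowest of the complex. Uqcrb was lower in 3 of 4 pairs, while mt-Cytb, the mitochondrial subunit of the same complex, was lower in 4 of 4.

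Complex IV had 13 of 18 nuclear members tested, with a median of 0.05 and 10 above 0. The most abundant were Cox7b, with 44.9, 29.5, 38.9 and 38.2 CPM in YFP-negative and 51.1, 29.2, 39.5 and 36.6 CPM in YFP-positive cells, and Cox5b, with 36.3, 40.6, 44.3 and 38.1 CPM against 44.9, 39.3, 45.04 and 34.5 CPM. Both had log2 fold changes under 0.05 in edgeR's fit without the block. In that fit mt-Co1 of the same complex had one of -0.29 and was not called. It was called as lower only in fits with the block. Ndufa4, first assigned to complex I and now placed in complex IV, had a log2 fold change of -0.04, whose sign changed in 4 of 17 other fits without the block. Cox7a2l, which joins complex III to complex IV in supercomplexes, had one of 0.11. Isoforms restricted to other tissues were low: Cox7a1 of muscle lay between 0.278 and 1.32 CPM, and Cox6b2, known from testis, between 3.15 and 6.27 CPM. Cox6a2 had all of its 15 counts in YFP-positive libraries, 12 of them in library 2, too few to test. The same library had the highest sum of 4 striated muscle markers, 28.9 CPM, where no other library exceeded 3.58 CPM, and the part of this in the Cox6a2 counts was not tested.

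Summed over its members, complex V had the highest CPM of the nuclear classes, with means of 940 in YFP-negative and 978 in YFP-positive cells. Atp5a1 and Atp5b encode the subunits that form the catalytic head. Atp5a1 had 275, 301, 292 and 272 CPM in YFP-negative and 302, 287, 301 and 293 CPM in YFP-positive cells. Atp5b had 208, 178, 211 and 176 CPM against 246, 184, 199 and 186 CPM. In edgeR's blocked fit the 95% interval of the log2 fold change was -0.08 to 0.19 for Atp5a1 and -0.07 to 0.22 for Atp5b. Of the 16 tested members, 11 lay above 0 with a median of 0.07, from -0.20 for Atp5l to 0.36 for Atp5s, both below 10 CPM in every library. The mitochondrial subunits of this complex, mt-Atp6 and mt-Atp8, could not be compared, since they had 4 and 0 counts.

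**Figure D4:**
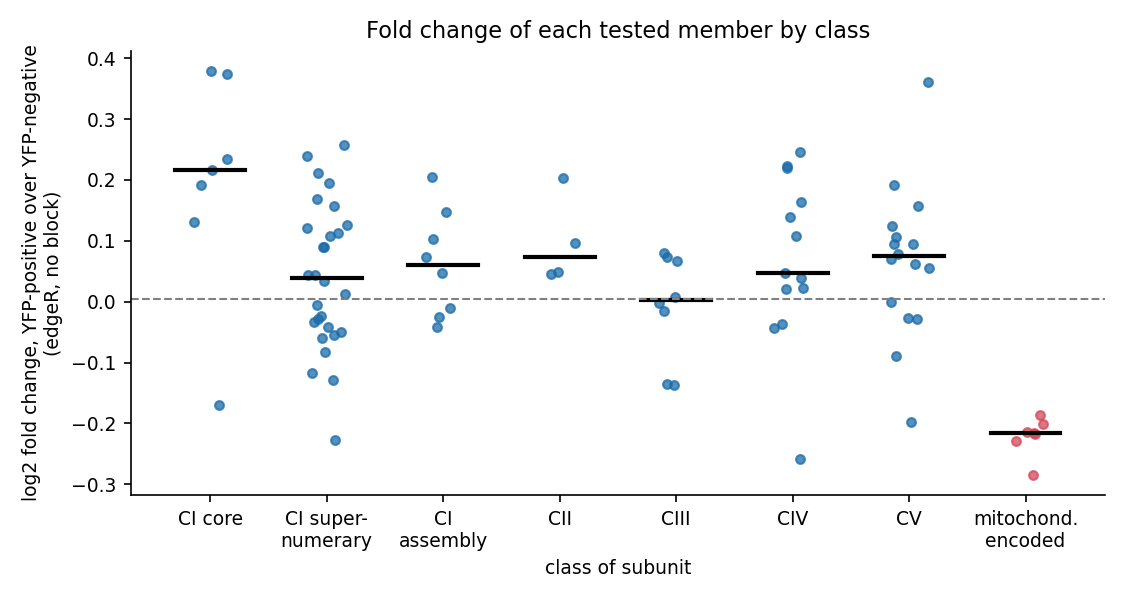
Log2 fold change of YFP-positive over YFP-negative cells in edgeR's fit without the block (vertical axis) for each of the 91 tested members, by class, with black bars at class medians and a dashed line at the median of all genes tested. Nuclear classes scatter around the dashed line with medians from 0.00 to 0.22, and the 7 mitochondrial messengers lie between -0.29 and -0.19.

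Over all nuclear members the median log2 fold change was 0.06 and 56 of 84 lay above 0, against 50.9% of all genes tested. It moved to -0.01 without YFP-negative replicate 2, to 0.01 without YFP-positive replicate 1 and to 0.15 without YFP-positive replicate 2. Higher in 4 of 4 pairs were 7 of 84, namely Ndufs7, Ndufs8, Ndufv2, Ndufa12, Sdhd, Cox5a and Atp5j, where the share over all genes was 8.86%, and 0 were lower in 4 of 4. With library sizes only these counts were 21 higher and 0 lower, against 15.9% of all genes higher. The median of all genes then moved to 0.09 and that of nuclear members to 0.15.

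The ratio of mitochondrial to nuclear counts within a library needs no scaling. The 13 mitochondrial members together held 2.90, 2.86, 2.03 and 3.80 times the counts of the 90 nuclear members in YFP-negative cells 1 to 4, and 2.37, 2.58, 1.97 and 2.67 times in YFP-positive cells 1 to 4. The YFP-positive library had the lower ratio in 4 of 4 pairs, by between 0.05 for number 3 and 0.51 for number 4 on the log2 scale, and the groups overlapped. The mean log2 ratio was 1.50 ± 0.37 (SD, n = 4) in YFP-negative and 1.25 ± 0.20 (SD, n = 4) in YFP-positive cells, a difference of -0.25 that is smaller than the SD of the YFP-negative group. The differences within pairs averaged -0.25 with an SD of 0.20, and -0.16 without both libraries of number 4. This value is given without a test. How introns were treated in the counting is not stated, so the nuclear sum may hold intron reads and the ratio is not one of mature messengers. The mitochondrial sum comes almost wholly from the 7 counted messengers, since each of the others had at most 4 counts. Cox4i1 and Ndufa13 added 0 to the nuclear sum. The ratio is therefore one of counted reads and not of the output of all members.

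As shares of all counts, the difference had parts on both sides. Mitochondrial messengers took 0.755%, 0.742%, 0.608% and 0.967% of all counts in YFP-negative and 0.71%, 0.691%, 0.60% and 0.798% in YFP-positive cells. Nuclear members took 0.26%, 0.26%, 0.299% and 0.254% against 0.30%, 0.268%, 0.305% and 0.299%. The first share was lower and the second higher in 4 of 4 pairs. By library sizes only, 15.9% of all genes tested were higher and 5.97% lower in 4 of 4 pairs. On the TMM scale the nuclear sum was higher in 2 of 4 pairs, at 2765 ± 108 CPM (SD, n = 4) against 2848 ± 141 CPM, while the mitochondrial sum was still lower in 4 of 4, at 7963 ± 1756 CPM against 6810 ± 817 CPM.

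**Figure D5:**
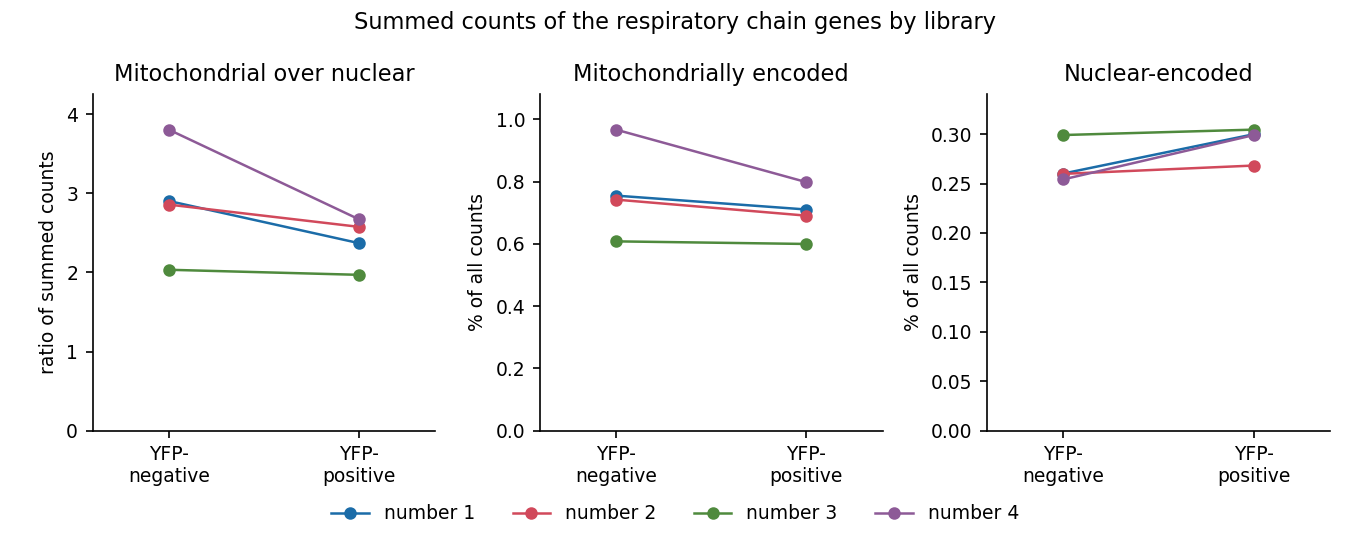
Ratio of summed mitochondrial to nuclear member counts (left) and the percentage of all counts held by mitochondrial (middle) and nuclear members (right) in each library, with lines joining libraries of the same number and axes starting at 0. The YFP-positive end is the lower one of all 4 lines in the first 2 panels, with the widest gap for number 4 (3.80 against 2.67), and the higher one of all 4 in the third.

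In the lists of genes around the chain, none of 16 tested electron carriers and ubiquinone-synthesis genes, 39 assembly factors, 15 regulators of mitochondrial biogenesis and 16 antioxidant or transport genes was called in either fit. Their medians were 0.05, 0.07, 0.04 and 0.05 on the log2 scale without the block. Among the most abundant, Etfa, which passes electrons from fatty acid oxidation, had a log2 fold change of -0.14, and Sod2, the superoxide dismutase of the matrix, one of -0.06. Ppargc1a, a coactivator of mitochondrial biogenesis chosen after its values were seen, lay between 5.50 and 8.05 CPM in YFP-negative and between 4.08 and 6.68 CPM in YFP-positive cells, lower in 4 of 4 pairs, with an adjusted p of 0.763 in edgeR's blocked fit.

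Marker genes differed between the groups beside the mitochondrial messengers. In the blocked edgeR fit 5 of 6 fibroblast markers fell, and their sum ranged from 25880 to 51766 CPM in YFP-negative and from 21290 to 34627 CPM in YFP-positive cells, with none at 0. Lum had a log2 fold change of -0.70 and Col3a1 one of -0.48, with adjusted p-values of 7.77e-05 and 0.00238, whereas Pdgfra had one of 0.00. Of 6 smooth muscle markers 2 rose, Myh11 by 0.47 and Acta2 by 0.41, and the sum ranged from 326 to 637 against 396 to 967 CPM. Of 4 pericyte markers Cspg4 rose and Rgs5 fell, and the sum ranged from 1356 to 1748 against 1188 to 1477 CPM. The sum of 4 enteric glia markers ranged from 5.21 to 33.6 against 1.52 to 3.86 CPM, with S100b at 0 in all YFP-positive libraries. Of 8 immediate early genes Nr4a1 fell, and the sum was lower in 4 of 4 pairs. None of the leukocyte, endothelial, epithelial and striated muscle markers was called, and none of 3 erythrocyte markers passed the filter on low counts. The epithelial sum was 105 CPM in YFP-positive library 4 and at most 30.9 in the others. The part of these differences in the mitochondrial and nuclear values was not tested, and in sorted bulk samples fewer cells of a type and less RNA per cell cannot be told apart.

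Promoters of the nuclear members were searched for letters of 4 factors tied to respiratory genes, on both strands, from 250 bases before to 50 after each start in the RefSeq table of GRCm38.p6, which held 74 of the 90. The NRF1 letters GCGCATGCG were in 10 members (13.5%), against 1.95% of 27025 genes in the table and 3.73% of its 11340 genes that were also tested for expression. The YY1 letters AAGATGGCG were in 8 members (10.8%), against 1.64% and 3.15%. The GABPA letters CCGGAAGT were in 5 members (6.76%), against 4.31% and 8.28%, and the ERR letters TCAAGGTCA in 2 members (2.7%), against 0.466% and 0.326%. Member promoters had a median GC content of 57.8%, against 52.7% of all. The windows shown hold the match in capitals with 10 bases on either side where the promoter window reaches that far. For NRF1, 1 member each of complexes I, III, IV and V is shown, since no complex II promoter searched held its letters. Ndufs7 and Sdhd follow, and all are read 5′ to 3′ on the strand of the gene.
Ndufa8, NRF1, chr2:36049329-36049357, minus strand: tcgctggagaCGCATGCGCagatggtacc
Uqcrc1, NRF1, chr9:108936668-108936696, plus strand: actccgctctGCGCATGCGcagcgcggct
Cox6a1, NRF1, chr5:115349102-115349130, minus strand: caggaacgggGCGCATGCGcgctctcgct
Atp5k, NRF1, chr5:108434431-108434459, minus strand: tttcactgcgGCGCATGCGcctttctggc
Ndufs7, YY1, chr10:80249463-80249491, plus strand: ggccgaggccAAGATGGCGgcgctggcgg
Sdhd, ERR, chr9:50603800-50603823, minus strand: ggttgtagagTGACCTTGAgccct
The matches in Ndufa8 and Sdhd read the letters of the opposite strand. A match is a description of the letters and not evidence of binding. The genes of the factors were not called either: Nrf1 had a log2 fold change of 0.05, Gabpa 0.11, Yy1 0.04 and Esrra -0.02 in edgeR's fit without the block.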

How the data were processed

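RNA of 8 sorted samples was sequenced from stranded total RNA libraries. Per the submitters' processing notes, cutadapt 3.4, STAR 2.7.3a, featureCounts 2.0.1 and DESeq2 were used with GRCm38, without stated settings. The table the authors deposited holds raw counts per gene, per the file headers. Its normalised values are a score in which the authors divided each count by a size factor and rounded: counts divided by recomputed size factors differed by at most 0.499995. It also holds the authors' log2 fold changes and p-values, per the file headers. Scores were not used in any test.

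Tests used the deposited counts and edgeR 4.0.16 in R 4.3.3: filterByExpr, TMM scaling and a robust quasi-likelihood model with group as its term, fitted to all 15945 genes and tested two-sided, with Benjamini-Hochberg adjustment. CPM values are TMM-normalised. DESeq2 1.42.0 and limma 3.58.1 were alternatives, along with other scalings, filters and left-out libraries. The code was tested on simulated data. The labels do not say whether libraries are separate animals, and p-values therefore cover only the variation among these libraries, which may be technical. Within groups, libraries were not duplicates (lowest chi-square per degree of freedom 50.9). Libraries of equal number correlated at 0.233, 0.487, 0.376 and 0.376 in their deviations from the group means, against at most 0.0456 for other numbers, so equal numbers were treated as pairs on the strength of the data, since the labels do not say so. Copies of members were sought among GENCODE M21 transcripts at 98% identity over at least 50 bases. Sequences came from GENCODE M21 and RefSeq.

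The members and gene lists (174 entries in 16 lists) were chosen with earlier results of these data known. Named were all mitochondrial members, members called in either fit, the 2 most abundant and the most extreme tested members of each nuclear class, tissue-restricted complex IV isoforms with Ndufa4 and Cox7a2l, and called or most abundant genes of each list. Some genes that this rule names are not reported here.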

Additional observations from a re-analysis of the deposited data

How the results depend on the processing

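Without the replicate block, 0 members were called in any of 18 fits, and 0 nuclear members in any of the 27 fits, with a lowest adjusted p of 0.12 by edgeR. Over all genes, DESeq2 called 2 and the fit with the replicate block 364, against 0. The replicate block called 1 mitochondrial member against 0, mt-Co1, and changed no other member's call. That call was lost, leaving 0, with library sizes only, and the count was 0 to 0 without replicate 1, 2, 3 or 4. RLE factors and DESeq2 with the block kept it, and the fit without mitochondrial genes could not test it. The block left the median of nuclear members at 0.06 and that of mitochondrial members at -0.20. Among named genes, the calls of Polg2, Nr4a1, Col1a2, Col3a1, Cspg4 and Rgs5 were also lost in at least 1 alternative with the block. The nuclear median ranged from -0.01 to 0.15 and the mitochondrial median from -0.33 to -0.05 over left-out libraries. The difference in log2 ratio was -0.25 from nuclear subunits only, -0.27 from mean log2 CPM and -0.25 without the overlapping mitochondrial pairs. Added after seeing the data were fits without both libraries of number 2, with medians of 0.07 and -0.24. The causes were not tested. Members under about 10 CPM rest on few counts in the smallest library.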
